A study of Mus musculus with 6 samples.

Results

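Retained introns of 200 nt or less were examined in hippocampal RNA from control mice and from mice labelled as knocked down for L-DL, the long isoform of the nuclear RNA-binding protein hnRNP D-like. The members were the retained intron events of the splicing table whose intron, from the end of the upstream exon to the start of the downstream exon, spanned 200 nt or less. This length rule, which uses no measured value, gave 1239 introns in 939 genes out of 3022 retained intron events and 40961 splicing events of all kinds. The shortest member was 30 nt, the median length was 101 nt, and 592 members (47.8%) were under 100 nt.

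Male wild-type C57BL/6 J mice received an adeno-associated virus in the CA1 area of both hippocampi at 8 weeks of age. The virus of the L-DL KD group carried an array of shRNAs against L-DL, each driven by an H1 promoter and so not limited to 1 cell type, and that of the control group carried a control shRNA at a higher titre. The labels name the controls wild type and name the other mice by 2 terms, a null genotype in 1 field and a knockdown in another, while the study's methods describe only the injection. Each group had 3 libraries, made from polyadenylated RNA of the hippocampus, whereas the virus was placed in CA1.

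Introns are removed by the spliceosome, which reads the 5′ splice site, the branch point and the 3′ splice site. Most mammalian exons are short and lie between long introns, so the splice sites are thought to be paired across the exon, whereas short introns are thought to be recognised across the intron itself. A retained intron within a coding region can add a premature stop codon, which can send the transcript to nonsense-mediated decay or keep it in the nucleus, or it can be read through and lengthen the protein.

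Retention was expressed as percent spliced in (PSI), given here as a share from 0 to 1: the inclusion junction counts, divided by their effective length, over the sum of inclusion and skipping counts, each divided by its effective length. A PSI of 0 means that no junction read crossed into the intron, and a PSI of 1 that no read joined the flanking exons. The table packs the 3 values of a group into 1 cell without replicate numbers, so values are given in the table's order.

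Sequences of 11 coding introns named in the text are shown from the GENCODE transcripts of build GRCm38, 5′ to 3′ on the strand of the gene. They are examples and not a ranking by difference or level. Capitals mark the first and last 2 bases of the intron and, where the reading frame meets a stop codon inside the intron, the first such codon. Adgrl1 intron 19 (chr8:83937326-83937460, plus strand) and B4galnt4 intron 5 (chr7:141064732-141064806, plus strand) were the only members past the adjusted threshold. Adgrl1 intron 19 is 135 nt long and has no stop codon in frame, whereas B4galnt4 intron 5 is 75 nt long and meets a stop codon at its base 6.
Adgrl1 intron 19: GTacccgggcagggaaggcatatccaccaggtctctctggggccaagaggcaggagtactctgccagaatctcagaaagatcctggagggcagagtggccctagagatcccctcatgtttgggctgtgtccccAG
B4galnt4 intron 5: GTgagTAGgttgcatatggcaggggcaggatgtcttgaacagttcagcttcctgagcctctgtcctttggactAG

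The next introns passed the threshold only when the fit was limited to retained intron events. Eif4a2 intron 2 lies at chr16:23108634-23108718, plus strand, and Eif4a2 intron 5 at chr16:23110154-23110233, plus strand. Clcn4 intron 8 lies at chr7:7291727-7291819, minus strand, Rundc3a intron 7 at chr11:102399781-102399887, plus strand and Rpl23a intron 4 at chr11:78180998-78181153, minus strand. Both Eif4a2 introns are rich in A and T, at 32.9% and 33.8% GC, while Rundc3a intron 7 is 81.3% GC.
Eif4a2 intron 2: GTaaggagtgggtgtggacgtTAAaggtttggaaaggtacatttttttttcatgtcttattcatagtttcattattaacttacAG
Eif4a2 intron 5: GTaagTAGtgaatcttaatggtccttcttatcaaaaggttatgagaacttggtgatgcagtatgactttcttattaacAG
Clcn4 intron 8: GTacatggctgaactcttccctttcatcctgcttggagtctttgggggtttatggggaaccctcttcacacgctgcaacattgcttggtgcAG
Rundc3a intron 7: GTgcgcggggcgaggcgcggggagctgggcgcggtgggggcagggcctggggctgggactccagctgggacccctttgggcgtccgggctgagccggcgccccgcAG
Rpl23a intron 4: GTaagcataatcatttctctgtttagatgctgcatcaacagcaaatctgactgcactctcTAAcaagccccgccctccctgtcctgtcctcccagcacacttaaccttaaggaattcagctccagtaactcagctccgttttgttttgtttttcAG

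A further pair of introns that keep the frame is shown beside the extremes of retention. Carm1 intron 15 lies at chr9:21587920-21588048, plus strand and Hnrnpm intron 6 at chr17:33666530-33666646, minus strand. Ftl1 intron 2 (chr7:45459123-45459191, minus strand) was kept in nearly every transcript counted, and Eef1a1 intron 5 (chr9:78479535-78479623, minus strand) was removed from nearly every one.
Carm1 intron 15: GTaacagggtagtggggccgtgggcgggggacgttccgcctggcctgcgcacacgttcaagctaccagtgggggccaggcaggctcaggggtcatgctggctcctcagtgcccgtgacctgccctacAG
Hnrnpm intron 6: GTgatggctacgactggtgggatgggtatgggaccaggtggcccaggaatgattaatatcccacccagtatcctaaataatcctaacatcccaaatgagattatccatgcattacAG
Ftl1 intron 2: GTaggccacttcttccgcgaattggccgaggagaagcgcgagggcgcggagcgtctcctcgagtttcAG
Eef1a1 intron 5: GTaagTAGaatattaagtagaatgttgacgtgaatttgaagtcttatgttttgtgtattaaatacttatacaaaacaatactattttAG

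As a class, the short introns had ordinary splice sites. Of the 1238 members whose sequence was found, 1217 (98.3%) began with GT and ended with AG, 13 began with GC and ended with AG, and 8 had other ends. Only 3 began with a motif of the minor, U12-type spliceosome. They were richer in G and C than longer introns, with a median of 56.8% against 49.3% over 1783 retained introns above 200 nt, and ranged from 20% to 86.4%. The 20 bases before the 3′ splice site held a median of 70.0% C or T in both classes. Among tested introns, 32.0% of the short ones began with GTGAG and 17.7% with GTAAG, against 26.4% and 22.1% of the longer ones.

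By the annotation, 1123 members lay within a coding region, 37 in a 3′ UTR, 35 in a 5′ UTR and 42 in a noncoding transcript, and 2 matched no spliced transcript. For 1096 coding members the reading frame could be followed into the intron. It met a stop codon in 773 (70.5%), met none but shifted the downstream frame in 208 (19%), and met none and kept the frame in 115 (10.5%). Most host genes contributed 1 member (737 of 939), 68 contributed 3 or more, and Qars, Rhot2, Tgfb1i1 and Tmem191c contributed 6 each, so members are not independent of each other. Another annotated gene overlapped the intron on the same strand for 91 members and on the opposite strand for 96. The counting is not stated to use strand, so reads of an antisense gene could not be told apart there.

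Of the 1239 members, 966 in 741 genes had enough reads for a test, defined as a mean of at least 20 junction counts per library over both forms and at least 1 of each form. Of the 273 left out, 219 had too few counts, 20 had too few inclusion counts and 34 had too few skipping counts. Tested members held between 20 and 11900 counts per library on average, with a median of 101, and PSI of the members with few counts is known less precisely. The libraries held 6760349 to 7939931 junction counts and 16052529 to 17913064 gene counts.

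The libraries labelled L-DL KD did not show less RNA of the targeted gene. Hnrnpdl, which encodes both the long and the short isoform, had 2862, 3120 and 2689 counts in the controls and 3939, 2680 and 2904 in those labelled L-DL KD. The groups overlapped, and the log2 fold change was 0.03 ± 0.12 (SE, edgeR adjusted p = 0.898). The gene count does not separate the isoforms, so it does not measure L-DL itself. The study assessed its knockdown in the injected hippocampus as L-DL protein, by immunoblotting, which these RNA counts do not measure. Cell type markers moved with the groups: 8 of 10 neuronal markers were lower and 2 higher, and the summed level of the list was 8470 to 8790 counts scaled to library size (CPM) in the controls against 5540 to 6150. All 10 microglial markers were higher, with sums of 1360 to 1740 CPM against 2950 to 3850. Of the CA1 markers 4 of 5 were lower (363 to 435 CPM against 225 to 295), and of the dentate granule markers 3 of 5 (311 to 369 CPM against 271 to 291). Among the astrocyte markers 1 of 6 was higher and 2 lower, among the oligodendrocyte markers 1 of 6 was higher, among the endothelial markers 3 of 4 and among the lymphocyte markers 1 of 4. No marker in these lists was at 0 in every library. Fewer cells of a type and less RNA per cell cannot be told apart in bulk tissue, and the part of cell composition in the splicing differences was not tested.

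In the controls most short introns were removed from most transcripts, and a minority was almost always kept. Of the 966 tested members, 410 had a control PSI under 0.1, 381 lay from 0.1 to 0.5, 105 from 0.5 to 0.9, and 70 at 0.9 or above. The median PSI over the members was 0.123, 0.117 and 0.133 in the controls and 0.132, 0.134 and 0.146 in those labelled L-DL KD. The lowest library labelled L-DL KD lay below the highest control, so the groups overlapped. The means of these medians were 0.125 ± 0.00807 (SD, n = 3) and 0.137 ± 0.00776 (SD, n = 3). Over the 1328 tested retained introns above 200 nt the library medians were 0.146, 0.158 and 0.161 in the controls and 0.147, 0.161 and 0.161 in those labelled L-DL KD, which overlapped more widely.

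Median retention spanned a wider range by the place of the intron in its gene than by its length. In coding regions the median control PSI was 0.12 over 888 tested members, whereas it was 0.546 for 21 members in a 5′ UTR, 0.71 for 28 in a 3′ UTR and 0.735 for 29 in noncoding transcripts. Among coding members the median was 0.113 for the 625 with a stop codon in the intron and 0.0957 for the 163 that shift the frame, and 0.218 for the 83 without a stop codon that keep the frame. The middle 50% of that last class ran from 0.0702 to 0.75.

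**Figure D1:**
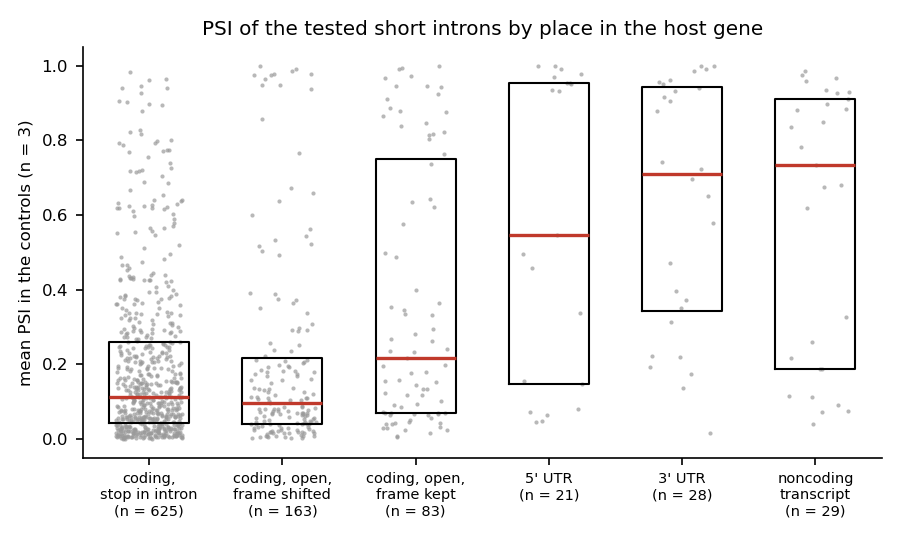
Mean PSI over the 3 control libraries (vertical axis, from 0 to 1) for each tested short intron (grey point) by its place in the host gene (horizontal axis), with the median (red line) and the middle 50% (box). Coding introns that meet a stop codon or shift the frame lie low (medians 0.113 and 0.0957), and introns of UTRs and noncoding transcripts spread to the top of the scale.

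Retention also differed by how the retained form is annotated. Where a protein-coding transcript carries the intron as part of an exon, the median control PSI was 0.497 over 163 members, and elsewhere it was 0.112 over 803. By length the medians were 0.14 up to 80 nt (n = 203), 0.0957 from 81 to 100 nt (n = 282), 0.157 from 101 to 150 nt (n = 292) and 0.136 from 151 to 200 nt (n = 189), with no steady order. Last introns of a transcript had a median of 0.328 (n = 71), first introns 0.357 (n = 30) and internal ones 0.125 (n = 865). Across the tested members Spearman's rho of control PSI was 0.06 with length, 0.105 with GC content and -0.265 with mean counts. These are descriptions across introns that share libraries and host genes.

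At the top of the scale, the 5 tested members with the highest control PSI were Ftl1 intron 2, Ints1 intron 1, Aspscr1 intron 3, Bsg intron 5 and Hsp90ab1 intron 3. The 34 members left out for too few skipping counts, with a median control PSI of 0.987, were not ranked. Ftl1 encodes the ferritin light chain, which stores iron, and its intron 2 had no skipping read in any control and 2, 3 and 5 in those labelled L-DL KD, against 3123 to 7037 inclusion reads. The introns of Ints1 and Aspscr1 also had no skipping read in any control. All 3 met the filter on skipping counts only through the libraries labelled L-DL KD, so a lower PSI there was fixed by the filter. Ftl1 has near-identical copies in the genome, so its counts are uncertain. Hsp90ab1, a cytosolic chaperone, held both extremes: its 37-nt intron 3, which begins with GC, had a control PSI of 0.999, and its intron 2 one of 0.0014. The shortest member, a 30-nt stretch in a 3′ UTR of Camk2b that begins with GA, had a control PSI of 0.999 and at most 4 skipping reads in any library.

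At the bottom of the tested members lay Tpr intron 48, Hspa8 intron 3, Rpl7 intron 2, Hsp90ab1 intron 2 and Eef1a1 intron 5. Hspa8, a constitutive chaperone, had 1 to 8 inclusion reads against 4382 to 6858 skipping reads. Eef1a1, a translation elongation factor, had 7 to 26 inclusion reads against 5136 to 8623 skipping reads. Tpr, a protein of the nuclear pore basket, had no inclusion read in any control and 12, 0 and 1 in those labelled L-DL KD, so 1 library carried nearly all of its inclusion reads. Tpr met the filter on inclusion counts only through that group, so a higher PSI there was fixed by the filter.

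Around the limit of 200 nt, introns of near-equal length covered the whole scale. The introns of exactly 200 nt with the most counts were Btbd9 intron 11 (control PSI 0.962), Trmt1 intron 3 (0.961) and Rnpepl1 intron 5 (0.232), and those of 201 nt were Srsf5 intron 4 (0.00179), Snph intron 1 (0.473) and Cxcl16 intron 2 (0.0142). The same introns in the L-DL KD group had mean PSI of 0.938, 0.977 and 0.102 inside the limit and of 0.00141, 0.404 and 0.00898 outside it.

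To find out whether retention of short introns differed between the groups, inclusion and skipping counts of all 18829 events with enough reads were fitted together with edgeR, and p-values were adjusted over all of them by the Benjamini-Hochberg method. Of the 966 short introns, 2 passed an adjusted p of 0.05, both with higher retention in those labelled L-DL KD. This is a share close to the background, since 0.255% of all events passed. The unadjusted p was under 0.05 for 84 short introns (8.7%), against 13.3% of all events, and the PSI values of the groups did not overlap for 164 (17.0%), against 18.4% of all events. Mean PSI was higher for 530 members (54.9%) and lower for 436, beside 53.0% higher among tested retained introns above 200 nt and 47.3% over all events. Among the 84, 48 were higher and 36 lower, and among the 164, 96 were higher and 68 lower. Over all events the same 2 splits were 934 higher and 1562 lower, and 1432 higher and 2034 lower. The split of the 84 turned with TMM scaling over the 12 columns of counts, to 40 higher and 48 lower, and without the first control, to 27 and 37. The lower count was 19 without the second control, 21 without the third control, 22 without the first library labelled L-DL KD and 22 by DESeq2.

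Among retained introns above 200 nt, 2 of 1328 were called (1 higher and 1 lower), with 63 higher against 65 lower among the 128 with an unadjusted p under 0.05. The median difference of PSI was 0.00347 for the short introns, 0.00156 for the longer ones and -0.00172 over all events. The median size of the difference regardless of sign was 0.0259 for the short introns, 0.0276 for the longer ones and 0.0297 over all events. The median SD between control libraries was 0.0323 for the short introns. That SD is a spread of single libraries, so it is no measure for a difference between means of 3.

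**Figure D2:**
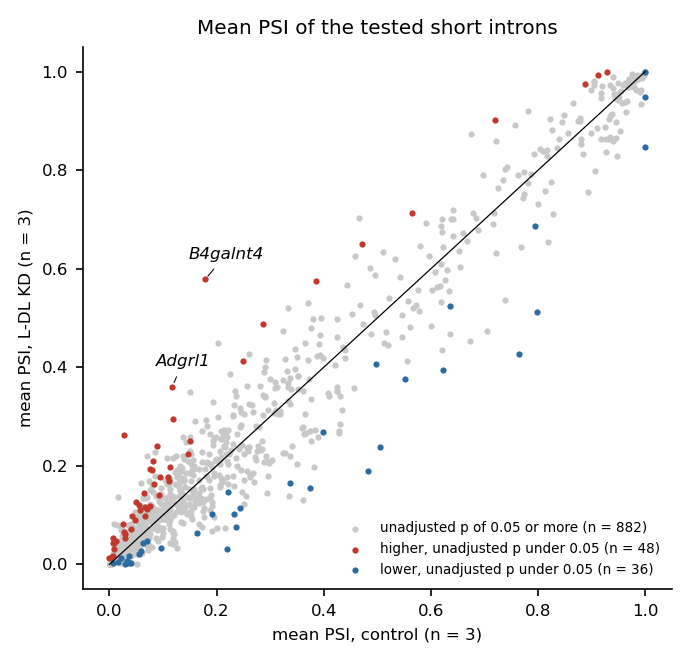
Mean PSI of the 966 tested short introns in those labelled L-DL KD (vertical axis, n = 3) against the controls (horizontal axis, n = 3), with the line of equal PSI. Red and blue points had an unadjusted p under 0.05, 48 above the line and 36 below it, and the named points, B4galnt4 and Adgrl1, passed the adjusted threshold.

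Adgrl1 encodes latrophilin 1, an adhesion G protein-coupled receptor of synapses. The PSI of its intron 19, which the study also examined, was 0.0991, 0.137 and 0.117 in the controls and 0.359, 0.359 and 0.364 in those labelled L-DL KD. The groups lay far apart, and the libraries labelled L-DL KD were almost equal. The mean rose from 0.118 ± 0.0192 (SD, n = 3) to 0.361 ± 0.00298 (SD, n = 3). The log2 ratio of inclusion to skipping counts rose by 2.09 ± 0.27 (SE, edgeR adjusted p = 0.0104), while the exact permutation test over the 6 libraries gave p = 0.1, the smallest that 3 against 3 allows.

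The counts of both Adgrl1 forms were separated between the groups, in opposite directions. Inclusion counts were 70, 98 and 90 in the controls and 227, 267 and 184 in those labelled L-DL KD. Skipping counts were 335, 324 and 359 against 213, 251 and 169. The gene as a whole fell, with a log2 fold change of -0.23 ± 0.07 (SE, edgeR adjusted p = 0.0413). The 135-nt intron keeps the reading frame, and the annotation holds a protein-coding transcript with the intron retained. Another gene, Gm10644, spans the intron on the opposite strand, and reads from it could not be told apart. Adgrl1 had no other retained intron event in the table.

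B4galnt4 encodes a glycosyltransferase that adds N-acetylgalactosamine to glycans. The PSI of its intron 5 was 0.172, 0.138 and 0.228 in the controls and 0.632, 0.538 and 0.565 in those labelled L-DL KD. The groups were again fully separated. The mean rose from 0.179 ± 0.0455 (SD, n = 3) to 0.578 ± 0.0487 (SD, n = 3), the log2 ratio of the forms by 2.70 ± 0.45 (SE, edgeR adjusted p = 0.0356).

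In contrast to Adgrl1, the skipping counts of B4galnt4 overlapped between the groups. Inclusion counts were 18, 16 and 15 in the controls and 139, 94 and 105 in those labelled L-DL KD, whereas skipping counts were 58, 67 and 34 against 54, 54 and 54. The gene as a whole rose, with a log2 fold change of 0.56 ± 0.10 (SE, edgeR adjusted p = 0.00562). The retained form meets a stop codon at base 6 of the intron and is annotated as a retained intron transcript only. No other gene overlapped this intron.

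**Figure D3:**
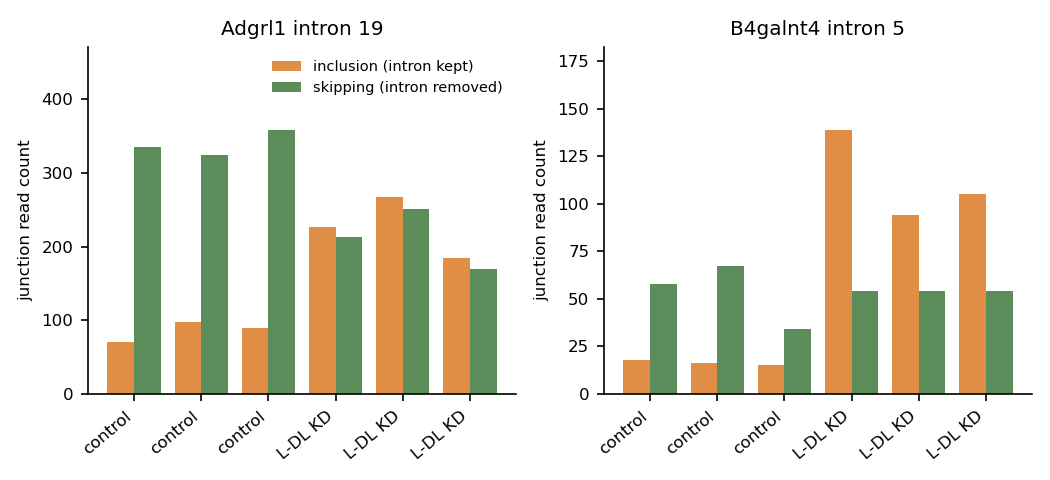
Junction read counts (vertical axis) of the inclusion form (orange) and the skipping form (green) in each control library and each library labelled L-DL KD for Adgrl1 intron 19 (left) and B4galnt4 intron 5 (right). Inclusion counts of Adgrl1 were 70 to 98 in the controls and 184 to 267 in those labelled L-DL KD, and those of B4galnt4 15 to 18 and 94 to 139.

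Neither call was kept in every fit that left out 1 library. Over all events the main fit called 48. Without control 1, 2 or 3, in the table's order, the fits called 3, 5 and 0. Without L-DL KD library 1, 2 or 3 they called 52, 3 and 16. Over these omissions the log2 change of inclusion ran from 1.96 to 2.22 for Adgrl1 and from 2.49 to 2.91 for B4galnt4. Each such fit has fewer libraries, so it cannot tell reliance on 1 library from the smaller size of the fit. Adgrl1 passed without the first or the third library labelled L-DL KD but not without the second or any 1 control (edgeR adjusted p from 0.0187 to 0.107 over the 6 omissions), and B4galnt4 did not pass under any of the 6 omissions (0.0828 to 0.201). With limma neither intron passed (adjusted p = 0.139 for each), although 54 short introns were then higher and 43 lower at an unadjusted p under 0.05, whereas DESeq2 called the same pair.

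Limiting the fit to the 2294 tested retained intron events, with p-values adjusted over those alone, called 14 of them. Of these 14, 7 were short introns, out of 966 short introns tested. Added to the called pair were Eif4a2 introns 2 and 5, Clcn4 intron 8, Rundc3a intron 7 and Rpl23a intron 4. Eif4a2 encodes an RNA helicase of translation initiation that is abundant in neurons. The PSI of its intron 5 was 0.0236, 0.0245 and 0.0318 in the controls and 0.0722, 0.0549 and 0.0692 in those labelled L-DL KD, without overlap (adjusted p = 0.0668 over all events and 0.0303 over retained intron events, edgeR). Its intron 2 had 0.00801, 0.00531 and 0.00511 against 0.0157, 0.0134 and 0.0208, also without overlap (adjusted p = 0.0974 and 0.0491, edgeR). Both introns carry a stop codon in frame, and the 2 longer retained introns of the gene, 7 and 8, had mean PSI of 0.0196 and 0.0137 in the controls and 0.0297 and 0.0228 in those labelled L-DL KD. These introns share a host gene, whose level fell (log2 fold change -0.46 ± 0.07 (SE), edgeR adjusted p = 0.00234).

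Rundc3a encodes a neuronal RUN domain protein. The PSI of its intron 7 was 0.0782, 0.0789 and 0.0918 against 0.141, 0.176 and 0.171 in those labelled L-DL KD (edgeR adjusted p = 0.0877 over all events). The groups did not overlap. Its other short intron, 5, had mean PSI of 0.068 and 0.0909, a smaller difference (edgeR adjusted p = 0.463). Rundc3a RNA fell slightly (log2 fold change -0.20 ± 0.06 (SE), edgeR adjusted p = 0.0367).

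Clcn4 encodes an endosomal chloride-proton exchanger, and its intron 8 was kept in most transcripts of both groups. The PSI was 0.877, 0.88 and 0.906 in the controls and 0.988, 0.969 and 0.969 in those labelled L-DL KD. Only 2 to 5 skipping reads per library remained there, against 14 to 18 in the controls (edgeR adjusted p = 0.0961). The intron keeps the frame and belongs to an exon of an annotated protein-coding transcript.

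Rpl23a encodes a protein of the large ribosomal subunit and was the member of this set with lower retention in those labelled L-DL KD. Its intron 4 had PSI of 0.088, 0.0915 and 0.107 in the controls and 0.0363, 0.028 and 0.0347, without overlap (edgeR adjusted p = 0.111). The gene table held 49 to 73 counts per library for Rpl23a, fewer than the junction counts of this 1 intron (173 to 209 per library), and ribosomal protein genes have near-identical copies, so the value is uncertain. The gene Tlcd1 overlaps the intron on the opposite strand.

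Of the 966 tested members, 72 had an unadjusted p under 0.05 and groups that did not overlap, 42 with higher and 30 with lower mean PSI. The same rule was met by 108 of 1328 longer retained introns (50 higher and 58 lower). Over all events 1988 of 18829 met it (732 higher and 1256 lower). Apart from the called pair, none of the 10 largest differences in either direction passed the adjusted threshold. On the higher side stood Trim65 intron 3, Izumo4 intron 4, A230050P20Rik intron 6, Spaca6 intron 7, Celf1 intron 13, Carm1 intron 15, Ankrd13b intron 10 and Zbtb17 intron 7, with differences of mean PSI from 0.15 for Zbtb17 to 0.234 for Trim65. Trim65, a ubiquitin ligase, went from 0.0281 ± 0.0278 to 0.262 ± 0.118 (SD, n = 3 each) on a mean of only 20.8 counts per library.

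Carm1 encodes an arginine methyltransferase that modifies histones and splicing factors. The PSI of its last intron, which keeps the reading frame, was 0.15, 0.0657 and 0.139 in the controls and 0.247, 0.302 and 0.339 in those labelled L-DL KD (edgeR adjusted p = 0.154). The groups did not overlap, and the neighbouring intron 14, of 265 nt, had mean PSI of 0.0703 and 0.225 but overlapping libraries. Carm1 RNA fell (log2 fold change -0.48 ± 0.10 (SE), edgeR adjusted p = 0.0106). A230050P20Rik intron 6 had the most reads of the remaining introns on the higher side (mean 264.0 counts per library), with PSI of 0.367, 0.372 and 0.42 against 0.567, 0.55 and 0.609 (edgeR adjusted p = 0.157).

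Spaca6, a sperm-egg fusion gene, had an intron 7 that was largely retained in both groups, at 0.719 ± 0.0436 and 0.903 ± 0.053 (SD, n = 3 each). Zbtb17, which encodes the MYC partner MIZ-1, went from 0.0898 ± 0.00735 to 0.239 ± 0.0904, with the 3 values labelled L-DL KD spread from 0.137 to 0.31.

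On the lower side stood Plxna3 intron 10, Lrrc14 intron 2, Idua intron 6, Mfsd10 intron 8, Stk11ip intron 8, Rgl3 intron 10, P3h3 intron 11, Qars intron 22, Fam50a intron 9 and Aspscr1 intron 3. Their mean counts ran from 20.3 per library for Rgl3 to 127.8 for Fam50a. Plxna3, a semaphorin co-receptor, had the most negative difference, from 0.765 ± 0.12 to 0.427 ± 0.15 (SD, n = 3 each, edgeR adjusted p = 0.367), on a mean of 21.0 counts. Aspscr1 had no skipping read in any control and 5, 2 and 11 in those labelled L-DL KD. It met the filter on skipping counts only through the latter, so the direction of its difference was fixed by the filter.

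Fam50a encodes a spliceosome-associated protein. Its intron 9 had PSI of 0.236, 0.15 and 0.325 in the controls and 0.064, 0.0923 and 0.0709 in those labelled L-DL KD (edgeR adjusted p = 0.138), with no overlap but a wide spread among the controls. Its longer intron 3, of 463 nt, had mean PSI of 0.165 and 0.0857, also without overlap (edgeR adjusted p = 0.397). Qars encodes glutaminyl-tRNA synthetase and held 6 short introns, of which 4 were tested. Intron 22 had PSI of 0.304, 0.416 and 0.29 against 0.166, 0.161 and 0.168 (edgeR adjusted p = 0.249). The other tested short introns of Qars, 3, 11 and 17, differed by 0.013, 0.00592 and -0.00633 in mean PSI, with overlapping libraries. Its adjacent longer intron 23, of 563 nt, had mean PSI of 0.295 and 0.168 without overlap (edgeR adjusted p = 0.417).

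**Figure D4:**
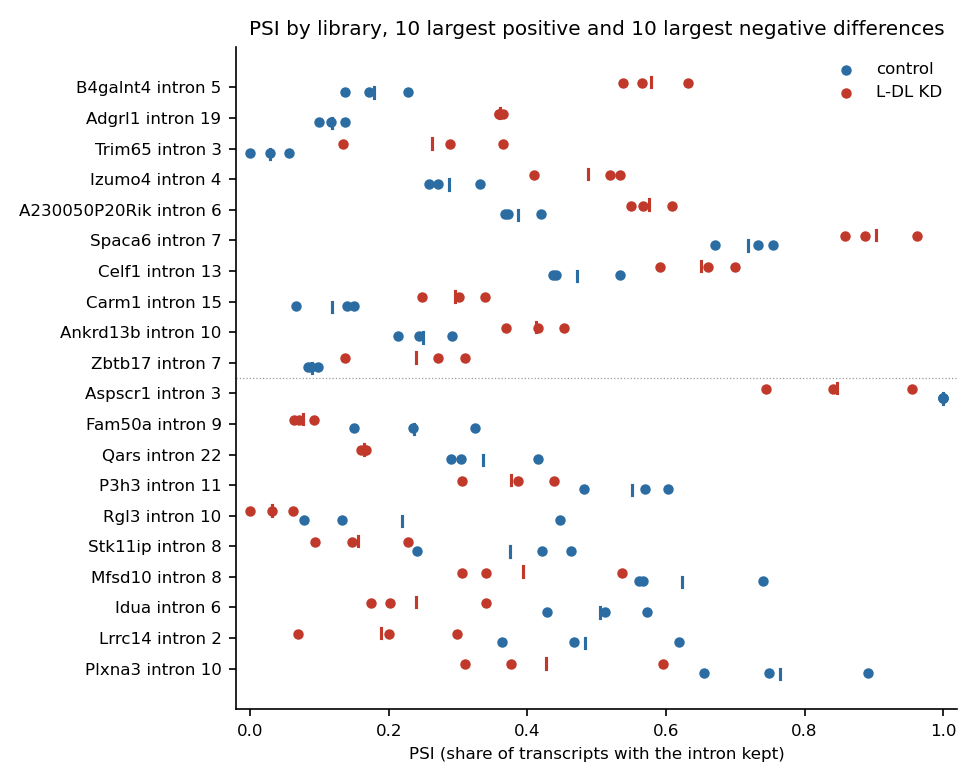
PSI (horizontal axis, 0 to 1) in each library for the 10 largest positive (above the dotted line) and 10 largest negative (below it) differences among short introns with an unadjusted p under 0.05 and groups that do not overlap, which is why no groups overlap here. Points are libraries, blue for control and red for those labelled L-DL KD, ticks are group means, and only B4galnt4 and Adgrl1 passed the adjusted threshold.

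Few short introns lay in genes of RNA processing, synapse, cytoskeleton, ribosome or vesicle function, and Adgrl1 intron 19 was the only one of these to pass the adjusted threshold. Of 27 members in genes of RNA binding and splicing, 25 were tested, with 16 higher and 9 lower and a median difference of 0.00748, beside 0.00347 over all short introns tested. At an unadjusted p under 0.05 stood 3 higher (Celf1, Hnrnph1 and Dhx30) and 1 lower (Hnrnpm).

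Hnrnph1 encodes a splicing regulator that binds runs of G. Its intron 3, of 197 nt, had PSI of 0.0996, 0.0978 and 0.129 in the controls and 0.175, 0.164 and 0.192 in those labelled L-DL KD (edgeR adjusted p = 0.201). The groups did not overlap. Celf1 encodes a regulator of splicing and mRNA decay, and its 3′ UTR intron had 0.438, 0.441 and 0.534 against 0.661, 0.592 and 0.7 (edgeR adjusted p = 0.273). Hnrnpm, another hnRNP splicing factor, had intron 6 in about as many transcripts as not, at 0.489, 0.486 and 0.517, against 0.394, 0.406 and 0.418 (edgeR adjusted p = 0.367), and that 117-nt intron keeps the frame. Dhx30, an RNA helicase, had mean PSI of 0.00858 and 0.0321 with overlapping libraries.

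Of 19 members in the synapse and excitability list, 14 were tested, 12 higher and 2 lower, with a median difference of 0.0134. Besides Adgrl1, only Ercc3 intron 5 had an unadjusted p under 0.05 (0.00753 to 0.0441 in mean PSI, groups not overlapping, edgeR adjusted p = 0.334). Ercc3 is a DNA repair helicase that entered the list only because its symbol begins with Erc. In the cytoskeleton and transport list 12 of 18 members were tested, 8 higher and 4 lower, with a median difference of 0.015. The only 1 under an unadjusted p of 0.05 was Ankrd13b, which matched by the start of its symbol and is a ubiquitin-binding protein. Map7d1 intron 11, which the naming rule would otherwise have given, had mean PSI of 0.0308 and 0.021.

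All 31 members in genes of the ribosome and mitochondrial respiration were tested, 15 higher and 16 lower, with a median difference of -4.05e-05. Ndufv1, a subunit of complex I, had intron 2 at 0.0499, 0.0572 and 0.0384 against 0.0703, 0.098 and 0.105 (edgeR adjusted p = 0.296), while its RNA fell (log2 fold change -0.68 ± 0.07 (SE), edgeR adjusted p = 0.000488). Rps2, of the small ribosomal subunit, had intron 1 at 0.00767, 0.00645 and 0.00894 against 0.00486, 0.00443 and 0.00172 (edgeR adjusted p = 0.271), while its RNA rose (0.71 ± 0.09, SE, edgeR adjusted p = 0.00119). In both genes the groups did not overlap. Of 26 members in the vesicle, lysosome and ubiquitin list, 24 were tested, 11 higher and 13 lower, with a median difference of -0.00196, and Vps11 intron 10 (0.0651 to 0.144) and Usp19 intron 18 (0.0289 to 0.0618) had an unadjusted p under 0.05.

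By sequence and place, the 48 introns with higher and the 36 with lower PSI at an unadjusted p under 0.05 had median lengths of 94.0 and 108.0 nt, beside 100 nt over all tested members, and median GC contents of 59.1% and 54.6%, beside 57.1%. Their median control PSI was 0.0756 and 0.227, beside 0.133. These medians describe introns chosen by the same contrast. A stop codon in frame was present in 29 of the 48 and in 27 of the 36, a frame shift without a stop in 11 and 2, and a kept frame without a stop in 5 and 5. Over all 966 tested members these classes held 625, 163 and 83. Over all tested members that shift the frame without a stop, 101 of 163 had higher mean PSI. Those that keep the frame without a stop had 50 of 83 higher, and those with a stop codon 331 of 625.

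The RNA level of the host genes was compared next. Of the 741 host genes of tested short introns, 728 were tested for expression, and 152 rose and 96 fell at an adjusted p of 0.05 in edgeR, which is 20.9% and 13.2%, beside 15.6% and 15% of all 17621 genes. The count that rose was 101 without control replicate 2 and 97 without control replicate 3, and the count that fell was 60, 63 and 63 without control replicate 1, 2 and 3. Among 44 host genes of introns with higher PSI at an unadjusted p under 0.05, 5 rose and 15 fell (34.1%), and among 36 host genes of introns with lower PSI, 11 rose (30.6%) and 1 fell. The median log2 fold changes were -0.08 and 0.21, beside 0.06 over all host genes. Across 943 introns Spearman's rho between the difference of PSI and the log2 fold change of the host gene was -0.191, a description over introns whose PSI and gene level come from the same libraries and reads. The cell type markers given above moved in the same libraries, and their part in this was not tested.

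**Figure D5:**
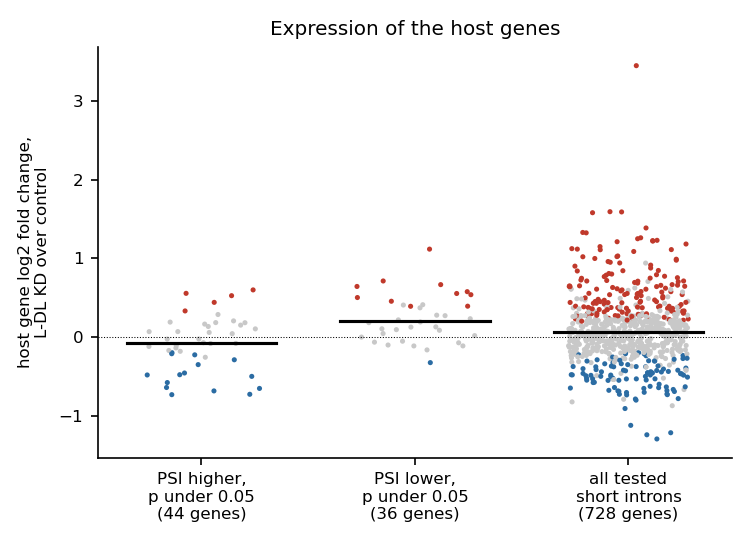
Log2 fold change of host gene RNA, libraries labelled L-DL KD over control (vertical axis), for genes whose short intron had higher PSI, lower PSI (each at an unadjusted p under 0.05) or for all tested short introns. Points are genes, red where they rose and blue where they fell at an adjusted p of 0.05 (edgeR), grey otherwise, and black lines are medians of -0.08, 0.21 and 0.06.

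The calcium/calmodulin kinase-like gene Camkv, whose intron 4 the study also examined, fell just outside the length limit at 214 nt (chr9:107945865-107946078, plus strand). Its PSI was 0.165, 0.177 and 0.158 in the controls and 0.299, 0.344 and 0.344 in those labelled L-DL KD (edgeR adjusted p = 0.0449). It was 1 of the 2 longer retained introns called.

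Of 157 genes with 2 or more tested short introns, 3 of those with the most members are described here, chosen after their values were seen. Rhot2, which encodes a mitochondrial GTPase of organelle transport, had 6 tested short introns, and intron 16 went from a mean of 0.112 ± 0.0308 to 0.198 ± 0.0292 without overlap, while its other introns had overlapping libraries. In Tmem191c, a predicted transmembrane protein gene, intron 4 went from 0.565 ± 0.104 to 0.714 ± 0.0264, while the other 5 introns had overlapping libraries and differences of mean PSI from -0.0497 to 0.0212. In the noncoding snoRNA host gene Gas5, 1 of 5 short introns, intron 3, was higher without overlap (0.092 ± 0.0132 to 0.141 ± 0.0164), and a 189-nt intron was lower without overlap (0.0721 ± 0.0128 to 0.0606 ± 0.00228). None of these passed the adjusted threshold (edgeR adjusted p = 0.294 for Rhot2 intron 16, 0.288 for Tmem191c intron 4 and 0.249 for Gas5 intron 3).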

How the data were processed

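Hippocampal RNA in 3 libraries labelled as control and 3 labelled L-DL KD had been sequenced by the authors as 150 nt read pairs. The authors deposited raw read counts per gene and a table of splicing events from rMATS 4.1.0, in which each event has 3 inclusion counts and 3 skipping counts per group and 2 effective lengths. The submitters' processing notes name HISAT2 2.1.0, Bowtie 1.1.2, HTSeq 0.6.1 and build mm10 (GRCm38). Columns of the deposited table with the authors' own p-values, false discovery rates, inclusion levels and their differences were not used.

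Group 1 of the table is the knockdown and group 2 the control. As a check of this order, log ratios of junction and gene counts between the groups were compared across 7084 genes (Pearson's r = 0.945). PSI was computed from counts and effective lengths. For a member of at most 200 nt the effective inclusion length is 148 plus the intron length, up to 298. Events that averaged 20 or more counts per library, with 1 or more of either form, were tested with the quasi-likelihood test of edgeR 4.0.16 in R 4.3.3, on both counts of every library with library as a factor, so that the term of interest is the group difference of log2 inclusion over skipping. Genes were kept at 10 counts or more in at least 3 libraries and tested with edgeR after TMM scaling. All p-values were adjusted by the Benjamini-Hochberg method over all events or all genes, with a threshold of 0.05. Both fits were tested on simulated data. The splicing fit called 52 of 183 events given a shift (28.4%) and 6 unchanged ones, so an event not called may still differ. The gene fit called 132 of 198 changed genes (66.7%) and 13 unchanged ones. DESeq2 1.42.0, limma 3.58.1, other scalings and filters, and omission of each library were alternatives. In limma the tested value was log2 of length-corrected inclusion over skipping counts, each plus 0.5. Nothing says whether each library came from 1 mouse, so p-values measure the spread between these samples. Values cover counting and replicate spread, not PCR duplicates.

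Introns were annotated, and their sequences read, from GENCODE vM21 (GRCm38), with intron numbers taken from the principal coding transcript that splices the intron. The frame was followed from that transcript. Members and gene lists were chosen with earlier results of these data known. The text names members called and the 10 largest differences each way among members with an unadjusted p under 0.05 and groups that do not overlap. Also named are the 5 highest and 5 lowest control PSI among tested members and gene-list members with an unadjusted p under 0.05. The shortest member, 3 introns on each side of the limit and introns the study names complete the choice. Eif4a2, Clcn4, Rundc3a, Rpl23a, Rhot2, Tmem191c and Gas5 were named after their values were seen. The gene lists match symbols by their first letters.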

Additional observations from a re-analysis of the deposited data

How the results depend on the processing

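Both called introns were called again by DESeq2, with TMM scaling over the 12 columns of counts, with a mean of at least 50 counts and with no filter beyond 1 count of each form. A limit of 150 nt leaves the fit unchanged and keeps both by construction, since they are 135 and 75 nt long. The count of called short introns moved from 2 to 7 with retained intron events only, where 14 events were called in all. By limma it moved to 0, as it did for events of any kind. It moved to 1 when introns that overlap another gene were left out, which was chosen after seeing the data and drops Adgrl1 by construction. Over omissions of 1 library the count ran from 0 to 1, with 27 to 47 introns higher and 19 to 37 lower at an unadjusted p under 0.05. DESeq2 gave 22 lower, against 36. The log2 change of inclusion ran from 1.96 to 2.22 for Adgrl1 intron 19 and from 2.49 to 2.91 for B4galnt4 intron 5 over the same omissions, and limma gave 2.08 and 2.63. These omissions leave fewer libraries. The difference between the groups in median PSI, 0.0126, ran from 0.00816 to 0.0169 over all its alternatives. Not every named intron was followed over the alternatives. For those that were followed and not called, 514 repeats kept direction and side of the threshold and 5 passed it (with retained intron events only). Trmt1 intron 3 reversed, at -0.13 without the second control value in the table's order, within a range of -0.13 to 1.08 over omissions. The cause was not tested.

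Host genes that rose numbered 97 to 198 over omissions of 1 library, and those that fell 60 to 116. The targeted gene changed sign without control replicate 3 or without L-DL KD replicate 1, with log2 fold changes from -0.127 to 0.15. Same-numbered libraries did not deviate together (correlations of 0.0535, 0.127 and -0.107), so the numbers were not taken as pairs. With the replicate block 132 host genes rose and 83 fell, and the targeted gene changed by 0.0104 (edgeR adjusted p = 0.958). No paired analysis was run for the splicing table, whose columns carry no replicate numbers. Depth limits introns near 20 counts, where single reads move PSI.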
